A study of Mus musculus with 48 samples.

Results

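The genes of the proteasome were examined in the cortex and whole brain of Tg2576 and WT mice. They were chosen by name alone, as the mRNA array features whose RefSeq transcript carried a symbol that starts with Psma, Psmb, Psmc, Psmd, Psme, Psmf or Psmg followed by a digit, and a gene with several features was read from the one with the highest mean over all arrays. This gave 50 of the 19752 named genes on the array, from 61 of its 55681 features. Of these genes, 48 encode subunits, assembly chaperones or regulators of the proteasome, and the other 2, Psmc3ip and Psme3ip1, matched by name only and are no subunits. A further 7 reference symbols fit the name, and no feature of the array was matched to them.

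The mRNA arrays held RNA of male mice. WT mice were of strain C57BL/6J and Tg2576 mice of strain Tg(APPSWE)2576Kha, which carries a human APP transgene with the Swedish mutation under the hamster prion protein promoter and accumulates amyloid-beta with age. There were 8 groups of 3 samples, one for each genotype, age (10 or 17 months) and tissue (brain cortex or whole brain), and thus 24 arrays. The labels do not say whether the replicates of a group were separate animals, so p-values measure only the spread between these samples.

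The proteasome degrades proteins that carry ubiquitin chains. Its core particle is a stack of rings, the outer ones of alpha subunits (Psma) and the inner ones of beta subunits (Psmb), and the beta subunits Psmb5, Psmb6 and Psmb7 cut peptide bonds. Under interferon these are replaced by Psmb8, Psmb9 and Psmb10, which form the immunoproteasome and favour peptides for MHC class I. The regulatory particle has a base with the ATPases Psmc1 to Psmc6, which unfold substrates, and a lid. Other proteins assemble these parts, or activate (Psme1 to Psme4) or inhibit (Psmf1) the core particle. In the brain, proteasome genes are used by all cell types, and the immunoproteasome is best known from microglia.

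Of the 50 genes, 48 were well above background on all 24 arrays and were tested in every comparison, among them the 2 matched by name only, and none was saturated. Psma8, the testis form of an alpha subunit, was well above background on 0 arrays, and Psmb11, the thymus form of a beta subunit, on 3 arrays, so neither was tested. All values below are log2 intensities relative to the 75th percentile of the array, and a difference of 1 is a doubling. The members were measured with little spread. The median SD within groups was 0.0787 over the 48 genes (0.0492 to 0.4316), against 0.1326 over the 32188 features detected on all arrays. The members were also bright, with a median level of 3.38 against -0.58 for those features.

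The arrays lay on 3 slides, and the slides were not balanced over the groups. Slide 1 held both 10-month cortex groups and replicates 1 and 2 of the 17-month WT cortex. Slide 2 held the third replicate of that group, the 17-month Tg2576 cortex, the 10-month WT whole brain and replicate 1 of the 10-month Tg2576 whole brain. Slide 3 held the rest. The 75th percentile of the intensity was 507 to 823.6, and 34151 to 41084 features per array were well above background. Cerebellum markers were lower in cortex than in whole brain (median -0.81 over 10 genes, 5 called lower), but 3 cortex arrays stood apart. The 17-month WT cortex replicate 2 carried cerebellum markers at +1.48 relative to their mean over all arrays, and the 10-month Tg2576 cortex replicates 1 and 2 carried olfactory bulb markers at +1.97 and +2.05. A sample of the 17-month Tg2576 cortex also carried olfactory bulb markers, at +1.01, and is not counted among these 3. The feature for mouse App had means of 6.03 in WT and 6.00 in Tg2576 cortex at 10 months, and 6.35 and 6.33 at 17 months. In whole brain they were 5.79 and 6.04 at 10 months and 6.37 and 6.35 at 17 months. The feature is annotated to the mouse transcript and the transgene is human, and whether it also binds transgene RNA was not tested, so it gives no check of the genotype labels. In these bulk samples, fewer cells of a type and less RNA per cell cannot be told apart.

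Upstream sequence of 5 members is shown because these genes differed with age in at least 1 tissue. Psmb8 and Psmb9 are the immunoproteasome genes that rose together, Psmf1 had the largest rise, Psmd9 rose in both tissues, and Psmc6 fell in both. Each line gives the 250 bases before the RefSeq gene start (GRCm38.p6), 5′ to 3′ on the gene's strand. Capitals mark matches to 5 short motifs, searched on both strands: the antioxidant response element TGACNNNGC, bound by Nfe2l1 and Nfe2l2, the interferon-stimulated response element, taken as 2 copies of GAAA with any 2 bases between them, the gamma-activated site TTCNNNGAA, the CCAAT box CCAAT and the GC box GGGCGG. The lines are chr17:34197945-34198194 on the plus strand, chr17:34187331-34187580 on the minus strand, chr2:151741311-151741560 on the minus strand, chr5:123227940-123228189 on the plus strand and chr14:45329574-45329823 on the plus strand.
Psmb8: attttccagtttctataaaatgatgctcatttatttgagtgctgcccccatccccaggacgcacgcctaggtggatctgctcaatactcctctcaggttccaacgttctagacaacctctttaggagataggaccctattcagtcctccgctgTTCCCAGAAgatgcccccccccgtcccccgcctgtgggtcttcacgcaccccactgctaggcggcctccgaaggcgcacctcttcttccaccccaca
Psmb9: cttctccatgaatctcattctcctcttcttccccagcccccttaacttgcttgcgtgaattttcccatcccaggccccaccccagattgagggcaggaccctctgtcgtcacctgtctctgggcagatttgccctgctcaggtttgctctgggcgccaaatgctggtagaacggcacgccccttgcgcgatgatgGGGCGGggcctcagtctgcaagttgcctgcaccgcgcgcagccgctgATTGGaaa
Psmf1: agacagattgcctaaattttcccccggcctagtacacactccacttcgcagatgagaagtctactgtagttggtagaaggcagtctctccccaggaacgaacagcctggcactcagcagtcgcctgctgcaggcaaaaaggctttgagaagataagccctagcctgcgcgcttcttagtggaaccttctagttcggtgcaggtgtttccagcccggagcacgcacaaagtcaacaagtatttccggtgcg
Psmd9: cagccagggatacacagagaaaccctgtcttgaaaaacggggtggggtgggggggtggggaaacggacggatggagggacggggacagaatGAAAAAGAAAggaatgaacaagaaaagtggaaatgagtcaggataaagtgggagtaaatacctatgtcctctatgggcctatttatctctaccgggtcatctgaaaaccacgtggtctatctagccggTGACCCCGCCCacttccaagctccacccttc
Psmc6: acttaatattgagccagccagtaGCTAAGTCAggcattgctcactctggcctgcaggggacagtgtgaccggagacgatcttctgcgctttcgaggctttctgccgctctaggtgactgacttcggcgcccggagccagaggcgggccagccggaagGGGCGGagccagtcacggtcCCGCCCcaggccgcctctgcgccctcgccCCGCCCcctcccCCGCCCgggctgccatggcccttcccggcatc
Psmb8 had the gamma-activated site at 97 to 89 bases before its start. Psmb9 had a CCAAT box at 8 to 4 and a GC box at 55 to 50. Psmd9 had an interferon-stimulated response element at 159 to 150, and an antioxidant response element at 31 to 23 that overlaps a GC box at 26 to 21. Psmc6 had an antioxidant response element at 227 to 219 and 4 GC boxes, and Psmf1 had none of the motifs in this window. Over the 42 members with a promoter in the table, the antioxidant response element was in 5, or 11.9%, against 10.1% of all 27025 promoters. The GC box was in 22, or 52.4%, against 32.9%, and the CCAAT box in 15, or 35.7%, against 34.5%. The interferon-stimulated response element was in 3, or 7.14%, against 3.04%, and the gamma-activated site in 2, or 4.76%, against 7.18%. These are matches of letters, not sites of binding.

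The first question was whether the transgene changed the proteasome genes. No member passed the test in any of the 4 comparisons of Tg2576 with WT mice, in either tissue or at either age (limma, adjusted over all features tested). The background was the same, since 0% of all features passed in each of the 4 comparisons, while 3625 to 4803 features had an unadjusted p under 0.05. Among the 48 members, 1, 0, 1 and 3 had an unadjusted p under 0.05 in the 10-month cortex, 17-month cortex, 10-month whole brain and 17-month whole brain. The 95% interval of a single member had a median half-width of 0.1774 to 0.2057, before any adjustment. After adjustment over all features, differences larger than these half-widths could also fail, as did 0.39 for Psmb2 in the 10-month whole brain. The size that would have passed differs between genes and was not computed.

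The groups did not overlap for 9 members in the 10-month cortex (3 of them higher in Tg2576), where 17.2% of all features did not overlap. The 17-month cortex had 7 such members (5 higher) beside 16% of all features, and the 10-month whole brain had 5 (4 higher) beside 17.6%. The 17-month whole brain had 17 (15 higher) beside 22%. In the first 3 comparisons the count was close to or below that background. In the fourth the members' count was 35.4%, and their median difference of 0.08 was above the 0.01 over all features. Both medians moved with the processing in this comparison. The members' median was 0.03 to 0.11 over the settings tried. The median over all features was -0.03 with the array median as the scale and 0.08 with normexp scaling. None of these members passed the adjusted test, and the smallest adjusted p there was 0.3416.

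The immunoproteasome genes did not pass the test in Tg2576 mice. At 17 months in the cortex, Psmb9 was -1.26, -1.36 and -1.38 in WT and -0.97, -1.21 and -1.18 in Tg2576 samples. The groups did not overlap, and the difference was 0.22 (adjusted p = 0.5457). Psmb8 differed by 0.15 and Psmb10 by 0.15 there. At 17 months in the whole brain, Psmb10 was 4.66, 4.65 and 4.83 in WT and 4.93, 4.88 and 5.12 in Tg2576. These groups did not overlap either, with a difference of 0.26 ± 0.09 (SE) and an adjusted p of 0.365, while Psmb8 and Psmb9 differed by 0.15 and 0.06. At 10 months the 3 genes differed by -0.09 to 0.14 in cortex and -0.07 to 0.13 in whole brain. The constitutive subunits Psmb5, Psmb6 and Psmb7 differed by -0.01 to 0.04 in the 10-month cortex, 0.08 to 0.13 in the 17-month cortex, -0.03 to 0.13 in the 10-month whole brain and -0.08 to 0.17 in the 17-month whole brain. The activators Psme1 and Psme2, which open the core particle and are induced by interferon, differed by -0.03 to 0.16 over the 4 comparisons, and neither passed.

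The other members with an unadjusted p under 0.05 were Psmb2, Psmd4 and Psmd3. Psmb2, a structural beta subunit, was 0.43, 0.54 and 0.54 in WT and 0.37, 0.23 and 0.14 in Tg2576 cortex at 10 months, and thus lower in each Tg2576 sample (difference -0.26, adjusted p = 0.4504). In the 10-month whole brain it lay the other way, at 0.16, 0.03 and 0.33 in WT and 0.34, 0.69 and 0.66 in Tg2576 (0.39, adjusted p = 0.4315). There the WT samples and the Tg2576 sample at 0.34 were on slide 2, and the Tg2576 samples at 0.69 and 0.66 on slide 3. Psmd4, a ubiquitin receptor of the base, was 5.46, 5.47 and 5.50 in WT and 5.67, 5.70 and 5.79 in Tg2576 whole brain at 17 months (0.24, adjusted p = 0.3416). Psmd3, a lid subunit, differed by 0.29 there (adjusted p = 0.3429).

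Averaged over both tissues and ages, 41 of 48 members were higher in Tg2576 mice, with differences of -0.07 to 0.16 and a median of 0.05, against 0.01 over all features. No member passed, where 0.212% of all features did (86 of 40483). In the single comparisons Psme3 reached -0.51 in the 10-month whole brain, where its only Tg2576 sample on slide 2 was at 0.77 and both on slide 3 at -0.31 and -0.05. In the average, the smallest adjusted p, 0.197, was that of Psmg4, a chaperone of core assembly, at 0.11 ± 0.04 (SE). With quantile normalization 33 of 48 were higher, and with the slide as a block 34. The test of whether the genotype difference changed with age had 0 members called in cortex and 0 in whole brain, as for all features (0%). Without replicate 1 of the 10-month Tg2576 whole brain, 2 members were called in the latter, Psmb2 and Psme3.

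**Figure D1:**
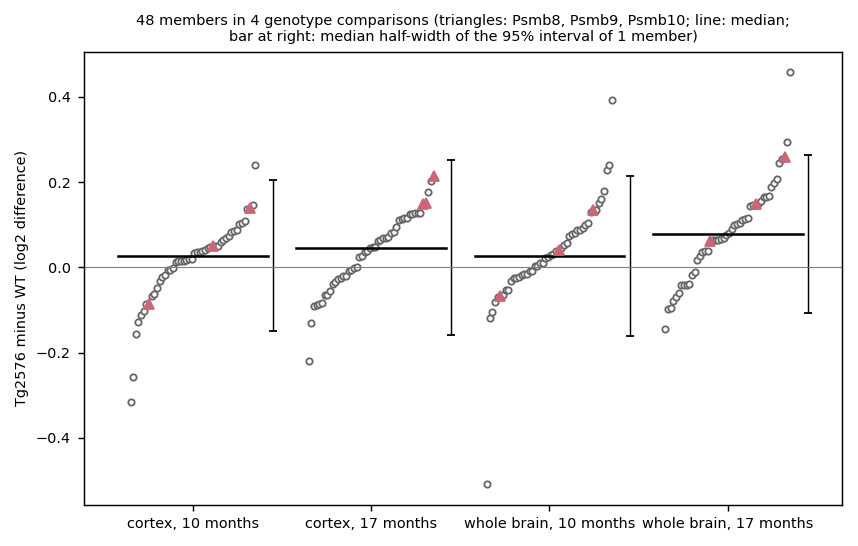
Log2 differences between Tg2576 and WT mice for the 48 members in each of the 4 comparisons, sorted within a comparison (y axis, log2 difference). The horizontal lines are the medians, from 0.03 to 0.08, the triangles are Psmb8, Psmb9 and Psmb10, and the bar beside each comparison is the median half-width of a member's 95% interval, centred on the median.

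Age was compared within each tissue, over both genotypes, with 6 samples of 17 months against 6 of 10 months. In the cortex, 4 members rose (Psmf1, Psmd3, Psmd11 and Psmd9) and 3 fell (Psme4, Psmc6 and Psma4). Over all 40254 features, 13.7% rose and 13% fell, and 14.6% of the members passed in either direction. In the whole brain, 11 members rose and 12 fell, or 47.9% in all, where 17.4% of all 38478 features rose and 21% fell. The members were detected on every array and many features were not. Among features well above background on all arrays compared, 33.1% were called in cortex, with 7 of the 48 members. In whole brain 44.6% were, with 25 members. The median difference over the members was 0.04 in cortex and 0.01 in whole brain, against -0.02 and -0.04 over all features. The split between rises and falls moved with the scaling. With quantile normalization it was 4 and 9 in cortex and 9 and 19 in whole brain, and with the array median it was 6 and 1, and 12 and 5.

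All 7 members called in the cortex were called in the same direction in the whole brain, and they made up 30.4% of the whole brain calls. For all features, 69.4% of the cortex calls and 49.8% of the whole brain calls were shared in direction. The sign of the difference was the same in both tissues for 77.1% of members and 75% of features. The age difference of no member was shown to differ between the tissues, by a test chosen after seeing the data in which 0.388% of all features passed. The smallest adjusted p was 0.09257 for Psmb1, a structural beta subunit, which differed by 0.02 in cortex and fell by 0.17 in whole brain.

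Psmf1, the inhibitor PI31 of the core particle, had the largest rise of any member in both tissues. In the cortex it was -0.92, -0.83 and -0.71 in WT and -0.65, -0.86 and -0.80 in Tg2576 samples at 10 months, and -0.23, -0.47 and -0.05 in WT and -0.10, -0.22 and -0.22 in Tg2576 samples at 17 months. Each 17-month sample was above each 10-month sample. The difference was 0.58 ± 0.08 (SE), a 1.49-fold rise (adjusted p = 0.0007768). In the whole brain it was -0.94, -0.91 and -1.11 in WT and -1.01, -1.17 and -1.14 in Tg2576 at 10 months, and -0.43, -0.44 and -0.48, and -0.37, -0.46 and -0.63 at 17 months. The ages again did not overlap, with the same rise of 0.58 ± 0.06 (SE, adjusted p = 0.0001251). It was called in all 13 other settings of the whole brain fit (0.53 to 0.68) and in 11 of 14 in cortex (0.38 to 0.65), not counting those that left out 1 sample. The cortex call was lost with the slide as a block (0.38), in WT samples alone and within slide 1.

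**Figure D2:**
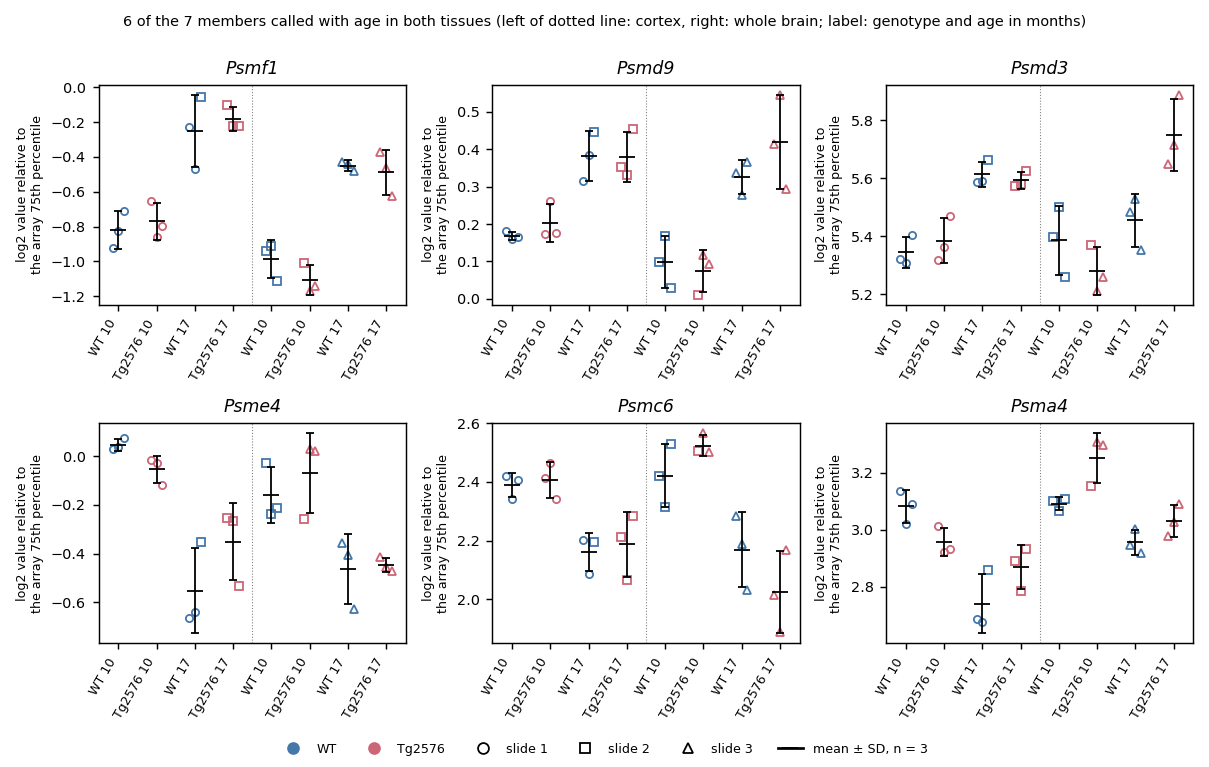
Log2 values of 6 of the 7 members called with age in both tissues, for each sample (points, with the slide as the shape and the genotype as the colour) and as mean ± SD of 3 samples, in cortex on the left and whole brain on the right of each panel. Psmf1, Psmd9 and Psmd3 lie higher at 17 months and Psme4, Psmc6 and Psma4 lower, in both tissues.

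The immunoproteasome genes Psmb8 and Psmb9 rose in the whole brain. Psmb8 was -0.85, -0.84 and -1.04 in WT and -0.96, -0.84 and -1.13 in Tg2576 at 10 months, and -0.59, -0.76 and -0.58, and -0.36, -0.40 and -0.73 at 17 months. The rise was 0.38 ± 0.08 (SE, adjusted p = 0.005497), with no overlap of the ages. Psmb9 was -1.58, -1.31 and -1.40, and -1.32, -1.18 and -1.40 at 10 months, and -0.82, -1.14 and -0.95, and -0.72, -0.92 and -1.09 at 17 months. It rose by 0.43 ± 0.08 (SE, adjusted p = 0.003403), again with no overlap. Psmb10 differed by 0.06 (adjusted p = 0.453), and was lower at 17 months with quantile normalization. In the cortex the differences were 0.24 for Psmb8, 0.20 for Psmb9 and 0.13 for Psmb10, and none passed (adjusted p = 0.08302, 0.07814 and 0.1775). With the array median as the scale, 2 of the 3 passed in cortex.

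Within groups, Psmb8 and Psmb9 moved together from sample to sample (r = 0.79 over the deviations of 24 arrays from their group means), and Psmb10 did not follow either (0.04 and -0.13). These values share arrays and their scaling and are a description. Of the 12 microglia markers, 2 were called higher and 2 lower with age in whole brain, and their mean level relative to that over all arrays was -0.06 to 0.04 in the 10-month and -0.08 to 0.16 in the 17-month whole brain. Markers of plaque-associated microglia were higher at 17 months in the whole brain (5 of 8 called, beside 38.4% of all features in either direction, median 0.40), at -0.35 to -0.12 against -0.03 to 0.87. The 17-month levels split by genotype, at -0.03 to 0.13 in WT and 0.55 to 0.87 in Tg2576 whole brain. In the 17-month cortex they were -0.16 to -0.10 in WT and 0.29 to 0.83 in Tg2576. Markers of other cell types also differed: 4 of 8 endothelium markers were called higher and 1 lower (median 0.24, mean levels of -0.26 to 0.06 at 10 months and 0.09 to 0.24 at 17 months). Of 8 astrocyte markers 3 were called higher and 1 lower (median 0.04, levels of -0.09 to -0.01 and 0.03 to 0.17). Of 8 oligodendrocyte markers 3 were called higher (median 0.17, levels of -0.24 to 0.06 and -0.21 to 0.28), and of the 4 lymphocyte markers tested 2 were (median 0.17). The mean level of the 10 neuron markers was also higher at 17 months in the whole brain, at -0.16 to 0.04 at 10 months and 0.10 to 0.15 at 17 months. The markers did not all move alike. Rbfox3 had means of 4.90 in WT and 5.05 in Tg2576 whole brain at 10 months, and 5.66 and 5.83 at 17 months. Stmn2 had 5.59 and 5.72 at 10 months, and 5.55 and 5.56 at 17 months. The part of any of these cells in the rise of Psmb8 and Psmb9 was not tested. In WT samples alone the difference of Psmb8 was 0.27 and did not pass. The constitutive counterparts did not pass in either tissue: Psmb5 differed by 0.04 and 0.08, Psmb6 by 0.06 and 0.01 and Psmb7 by 0.01 and -0.16 in cortex and whole brain. Neither did the activators Psme1 (0.03 and 0.08) and Psme2 (0.04 and 0.05).

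**Figure D3:**
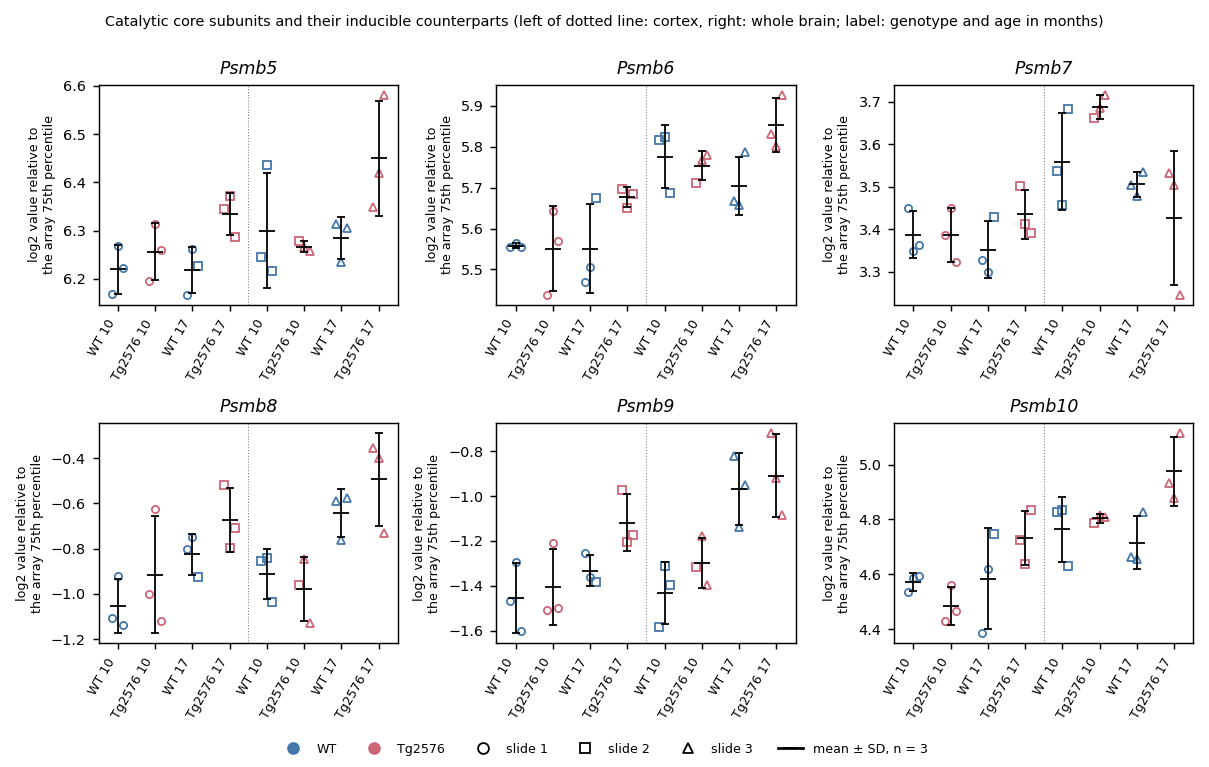
Log2 values of the catalytic subunits Psmb5, Psmb6 and Psmb7 (top) and of the immunoproteasome genes Psmb8, Psmb9 and Psmb10 (bottom), for each sample and as mean ± SD of 3 samples, with genotype as the colour and slide as the shape. In whole brain, right of the dotted line, all 17-month samples of Psmb8 and Psmb9 lie above all 10-month samples, and those of the other 4 genes overlap.

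Of the 14 constitutive core subunits, 4 fell with age in the whole brain (28.6%, beside 21% of all features) and 0 rose. All 7 alpha subunits were lower at 17 months in the main analysis and under each of the other scalings and blocks tried, 3 of them called (Psma1, Psma2 and Psma4), with a median of -0.13. Psma2 was called in 6 of the 12 fits with 1 sample left out. The fourth was Psmb1, and 3 of the 14 were not lower (Psmb2, Psmb5 and Psmb6). Psma1 was 4.03, 4.002 and 4.06 in WT and 4.04, 4.16 and 4.16 in Tg2576 at 10 months, and 3.89, 3.88 and 3.87, and 3.83, 3.78 and 3.86 at 17 months. The ages did not overlap, and it fell by 0.22 ± 0.04 on the log2 scale (SE, adjusted p = 0.001919). In the cortex 7 of the 14 were lower and only Psma4 was called. It fell by 0.22 there and by 0.18 in whole brain (adjusted p = 0.01244 and 0.01096), and its second feature fell by 0.16 and 0.25 (adjusted p = 0.04069 and 0.006451). Psma7 stood at 3.63 in 1 sample, the 10-month Tg2576 cortex replicate 3, and at 4.65 to 5.09 in the other 23.

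In the regulatory particle, Psmc6, an ATPase of the base, fell and 2 lid subunits rose in both tissues. Psmc6 was 2.42, 2.34 and 2.41 in WT and 2.41, 2.46 and 2.34 in Tg2576 cortex at 10 months, and 2.20, 2.09 and 2.20, and 2.21, 2.07 and 2.28 at 17 months. It fell by 0.22 ± 0.05 in cortex and by 0.38 ± 0.07 in whole brain (SE, adjusted p = 0.01014 and 0.001749), with no overlap of the ages in either. Psmd3 rose by 0.24 and 0.27 (adjusted p = 0.00369 and 0.008302). In the whole brain its 17-month values were 5.49, 5.53 and 5.35 in WT and 5.65, 5.71 and 5.89 in Tg2576, over 5.26 to 5.501 and 5.21 to 5.37 at 10 months, so the WT ages overlapped and the Tg2576 ages did not. In WT samples alone, whose ages lay on different slides, the difference was 0.07. The test of genotype by age called no member in whole brain. Psmd11 rose by 0.23 in cortex and 0.27 in whole brain (adjusted p = 0.01774 and 0.001768). In whole brain the ATPase Psmc5 also rose by 0.22 (adjusted p = 0.009632), and Psmd6 and Psmd13 fell by 0.19 and 0.16 (adjusted p = 0.01183 for both). Psmd4 and Psmd7 rose by 0.13 each and Psmd2 fell by 0.12 (adjusted p = 0.02632, 0.04062 and 0.04176), but with 1 of the 12 samples left out in turn, Psmd4 was called in 9 fits, Psmd7 in 2 and Psmd2 in 2.

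The chaperones of the base split. Psmd9 rose in both tissues, by 0.19 ± 0.04 in cortex and 0.29 ± 0.05 in whole brain (SE, adjusted p = 0.009736 and 0.002399), with no overlap of the ages in either. Psmd5 and Psmd10 fell in the whole brain by 0.28 and 0.23 (adjusted p = 0.001236 and 0.001686). Psmd5 was 1.504 to 1.57 in WT and 1.42 to 1.52 in Tg2576 at 10 months, and 1.23 to 1.28 and 1.09 to 1.29 at 17 months, without overlap. The second features of Psmd9 and Psmd10 moved the same way in whole brain (0.29 and -0.28), and that of Psmd9 did not pass in cortex (0.11, adjusted p = 0.1251). Of the core chaperones, Psmg4 rose by 0.17 and Psmg2 fell by 0.18 in whole brain (adjusted p = 0.0448 and 0.04964). These calls rested on nearly every sample, since with 1 of the 12 left out in turn Psmg4 was called in 3 fits and Psmg2 in 2.

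Psme4, the activator PA200, had the largest fall in cortex. It was 0.03, 0.04 and 0.07 in WT and -0.02, -0.03 and -0.12 in Tg2576 cortex at 10 months, and -0.66, -0.64 and -0.35, and -0.25, -0.27 and -0.53 at 17 months. It fell by 0.45 ± 0.07 on the log2 scale (SE, adjusted p = 0.001769), with no overlap. In whole brain it fell by 0.34 ± 0.07 (SE, adjusted p = 0.004582), also with no overlap. The second feature of the gene fell by 0.52 and 0.64 (adjusted p = 0.0007256 and 0.0008217). Psme3ip1, an interactor of the activator Psme3 and no subunit, rose by 0.30 in whole brain (adjusted p = 0.001827) and Psmc3ip, a recombination factor, passed in neither tissue.

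Age and slide were partly the same split of the samples. In WT whole brain the split was complete, with 10 months on slide 2 and 17 months on slide 3. In Tg2576 cortex it was also complete, with 10 months on slide 1 and 17 months on slide 2. In fits on either of these alone, age and slide cannot be told apart. With the slide as a block, 3 members were called in cortex (Psme4, Psma4 and Psme3, of which Psme3 was not called without it) and 6 in whole brain (Psmf1, Psme4, Psma1, Psma4, Psmd5 and Psmd10). Over all features 4.4% and 10.4% were called in these fits. Psmb8 and Psmb9 kept their sizes there (0.39 and 0.41) and were not called. Within slide 1, with 2 WT cortex samples of 17 months and 3 of 10 months, all 7 called members had the same sign and 6 did not overlap. Psmf1 differed by 0.47 and Psme4 by -0.70 there, and Psmd11 overlapped at 0.05. Within slide 3, with 3 Tg2576 whole brain samples of 17 months and 2 of 10 months, 22 of 23 had the same sign and 20 did not overlap. Psmf1 differed by 0.67, Psmb8 by 0.49, Psmb9 by 0.38 and Psmc6 by -0.51, and Psmg4 turned to -0.01. The members had been called in fits that included these same samples, and the same counts over all features were not computed. These counts within slides are thus a description only.

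Marker lists of other regions differed in level between the ages. In cortex the olfactory bulb list had a median difference of -0.90 with 0 of 10 genes called, and the 10-month Tg2576 replicates 1 and 2 carried its highest levels. Without the 3 cortex arrays named above, 3 members were called for age, beside 12.8% of all features. The 17-month Tg2576 cortex sample that also carried olfactory bulb markers stayed in this fit. In whole brain the brainstem list had a median of 1.43 (3 of the 4 genes tested were called), and the mean level of its 7 genes was -0.75 to 0.65 at 10 months and 0.12 to 1.92 at 17 months, relative to that over all arrays. The part of tissue makeup in the age differences was not tested.

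**Figure D4:**
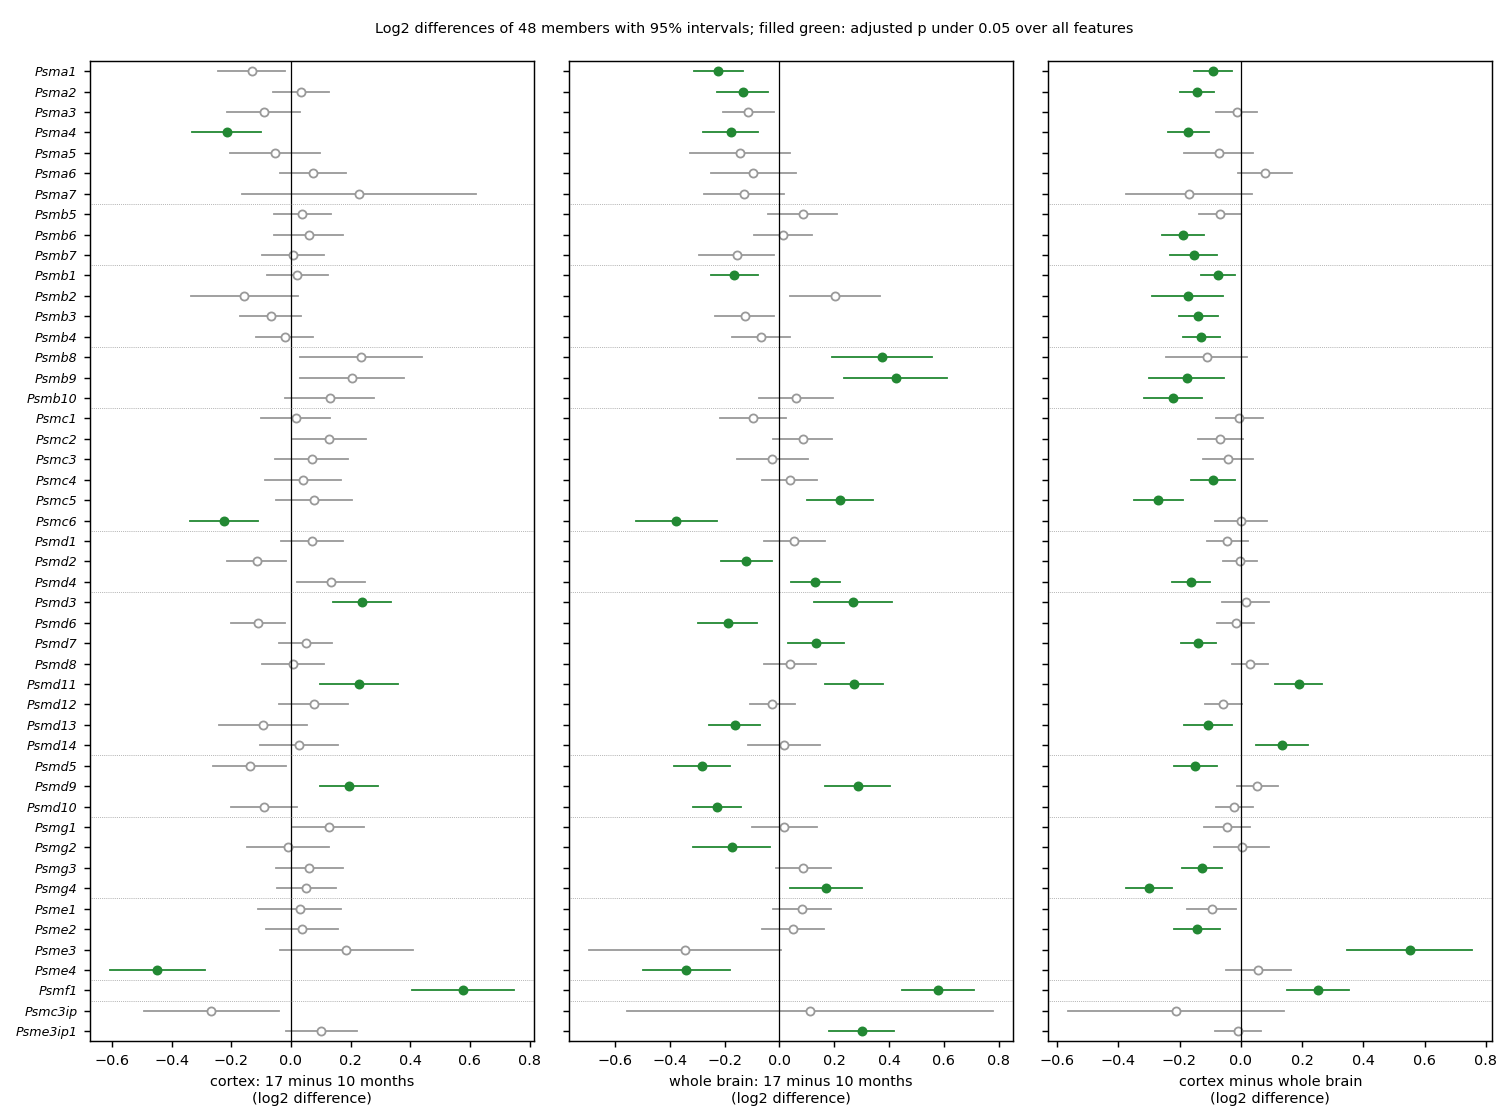
Log2 difference with its 95% interval for each of the 48 members (rows, grouped by role from the alpha ring at the top to the genes matched by name only at the bottom) between 17 and 10 months in cortex (left) and whole brain (middle) and between cortex and whole brain (right). Filled green points passed the test, namely 7, 23 and 24 members.

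Between the tissues, over both genotypes and ages, 20 members were lower in cortex than in whole brain and 4 were higher, or 50% in all, where 17.6% of all 40483 features were lower and 19.9% higher. Among features well above background on all arrays, 43.3% were called in either direction, with 25 of the 48 members. The median over the members was -0.07, against 0.01 over all features. Of the 14 constitutive core subunits 9 were called lower, among them all 4 structural beta subunits and the catalytic Psmb6 and Psmb7 (-0.19 and -0.15, adjusted p = 0.0002807 and 0.003116), and 0 were called higher. Psmb5 differed by -0.07 (adjusted p = 0.1134). With quantile normalization the split was 14 lower and 6 higher, and with the array median 24 and 3.

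The largest falls in cortex relative to whole brain were those of Psmg4 (-0.30 ± 0.04, SE, adjusted p = 8.785e-06), the ATPase Psmc5 (-0.27, adjusted p = 4.13e-05), the immunoproteasome gene Psmb10 (-0.22, adjusted p = 0.0008718), Psmb6 and Psmb9 (-0.18, adjusted p = 0.02381). Psmg4 was -0.19 to 0.05 in the 12 cortex samples and 0.01 to 0.46 in the 12 whole brain samples, which overlap only narrowly. Psmb8 differed by -0.11 and did not pass, Psme2 was lower by 0.14 on the log2 scale (adjusted p = 0.003939), and Psme1 did not pass. Psma4 was lower on its brightest feature (-0.17) and not on its second (-0.01).

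Psme3, the activator PA28 gamma of the nucleus, had the largest excess in cortex (0.55 ± 0.10, SE, adjusted p = 0.0003088). Its values were 0.67, 0.57 and 0.42 in WT and 0.62, 0.91 and 0.86 in Tg2576 cortex at 10 months, and 1.13, 1.14 and 0.64, and 0.74, 0.66 and 0.86 at 17 months. In whole brain they were 0.65, 0.57 and 0.71, and 0.77, -0.31 and -0.05 at 10 months, and -0.01, -0.24 and 0.07, and 0.24, 0.03 and 0.18 at 17 months. All 4 whole brain samples of slide 2 were at 0.57 to 0.77, within the range of cortex, and all 8 of slide 3 were below. Psmf1, Psmd11 and the deubiquitinase Psmd14 of the lid were higher in cortex by 0.25, 0.19 and 0.13 (adjusted p = 0.0005815, 0.0005707 and 0.0151).

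Tissue and slide were also partly the same split, since slide 1 held only cortex and slide 3 only whole brain. With the slide as a block 1 member was called (Psmd11, 0.44, adjusted p = 0.0297), where 0.652% of all features were, and 8 of the 24 members changed sign, Psme3 to -0.41. Within slide 2, which set 17-month cortex against 10-month whole brain, 17 of 24 had the same sign and 12 of them did not overlap. Psme3 differed by -0.01 there. These samples were also part of the fit that called the members, and the same counts over all features were not computed. Slide 2 was the only slide with both tissues, and its tissues also differed in age. Slide and tissue thus cannot be fully told apart for any of the 24 members.

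**Figure D5:**
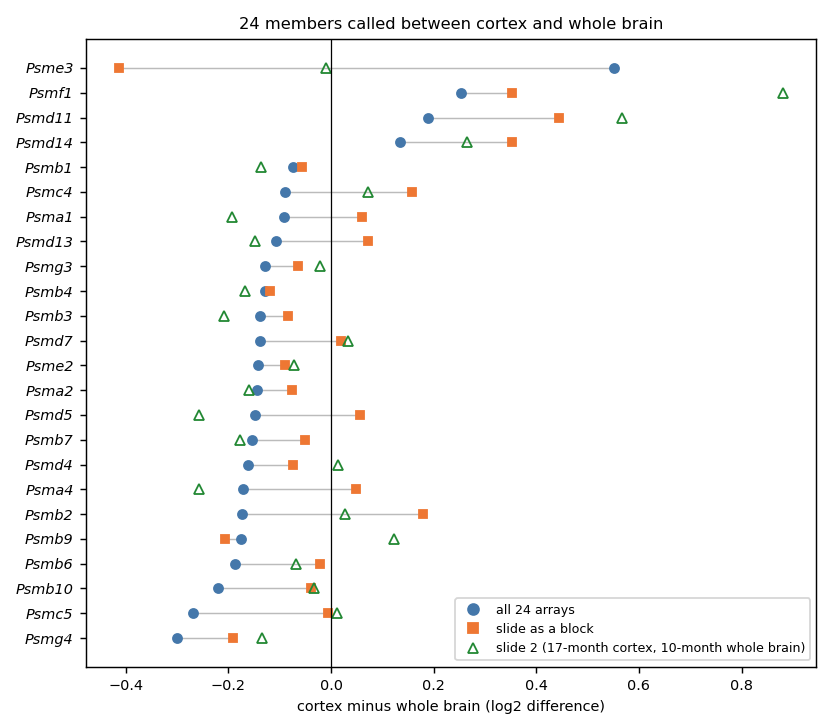
Log2 difference between cortex and whole brain for the 24 members called, over all 24 arrays (circles), with the slide as a block (squares) and within slide 2 (triangles, 17-month cortex against 10-month whole brain). The squares lie nearer to or across 0 for most of the genes that were lower in cortex, and Psme3 turns from 0.55 to -0.41.

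Proteins that work with the proteasome were taken from a list of 25, of which 23 were tested. With age, 9 rose and 3 fell in cortex, beside 13.7% and 13% of all features, and 12 rose and 3 fell in whole brain, beside 17.4% and 21%. Ubqln2, a shuttle for ubiquitinated proteins, rose by 0.42 and 0.56 (adjusted p = 0.001545 and 8.218e-05). Adrm1, a ubiquitin receptor of the base, rose by 0.40 and 0.47, and Uchl1, a neuronal deubiquitinase, by 0.42 and 0.32. Ecpas, a scaffold of the proteasome, fell by 0.46 and 0.34, and the ubiquitin ligase Ube3a by 0.40 and 0.35. Rad23b fell by 0.27 in cortex and Sem1, a lid subunit outside the name rule, by 0.18 in whole brain. Nfe2l1, the transcription factor that raises proteasome genes when the proteasome is inhibited, rose by 0.26 in cortex and 0.29 in whole brain (adjusted p = 0.04335 and 0.003195). Nfe2l2 and Pomp, a core assembly factor, did not pass in either. Within 1 slide, 11 of the 12 calls in cortex and 14 of the 15 in whole brain had the same sign. The exceptions were Nfe2l1 in cortex (-0.11) and Ecpas in whole brain (0.08). The samples within a slide were also part of the age fits, and the share over all features was not computed.

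Of 24 genes of MHC class I presentation and the interferon response, 5 rose and 1 fell with age in cortex, and 9 rose and 0 fell in whole brain. These are 25% and 37.5% of the list, beside 26.7% and 38.4% of all features, so the number of calls in either direction was at the background. The directions were not split as in the background. All of the 37.5% in whole brain were rises, where 17.4% of all features rose and 21% fell. In cortex 13.7% of all features rose and 13% fell. Tap1 and Tap2, the peptide transporters that lie beside Psmb8 and Psmb9 in the genome, rose by 0.95 and 0.66 in cortex and by 0.66 and 0.90 in whole brain (adjusted p = 0.0008314 and 0.0002866, and 0.005045 and 2.791e-05). H2-D1 rose by 0.51 in cortex, Irf7 by 0.87 and Cd74 by 0.82 in whole brain, and Gbp2 fell by 0.38 in cortex. B2m did not pass with age in either tissue. All 6 calls in cortex and all 9 in whole brain had the same sign within 1 slide, in samples that were also part of the age fits. Between Tg2576 and WT mice, averaged over tissue and age, only Ifit3 of this list passed. It was lower in Tg2576 by 0.25 on the log2 scale (adjusted p = 0.02399), and 0 of the 23 partners passed. Between the tissues, 8 of the 24 were lower and 2 higher in cortex, and of the 23 partners 5 were lower and 5 higher, beside 17.6% of all features lower and 19.9% higher.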

How the data were processed

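Total RNA of mouse brain was extracted with the mirVana PARIS kit and hybridised to Agilent one-colour mRNA arrays, 24 in 8 groups of 3. The deposited scanner files were made by the authors with Agilent Feature Extraction 10.7.3.1, per the submitters' processing notes, and hold an intensity per spot that was already background-corrected. The deposited value tables hold log2 values that the authors made from the same intensities, equal within 0.01 for 99.8% or more of the features of each array to the log2 of the intensity less an array-specific constant. The authors analysed them in GeneSpring GX with an unpaired t-test.

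Here the log2 intensity minus the 75th percentile of each array was used, and spots of one probe were averaged. Features marked as well above background on 2 or more arrays of some group were kept. Models were fitted with limma 3.58.1 in R 4.3.3 (lmFit and eBayes) over all features that passed, adjusted by Benjamini-Hochberg over all of them at 0.05. Genotype was tested within each tissue and age, and age within each tissue over both genotypes. Tissue and the averaged genotype difference were tested over all 24 arrays. The fits were tested on simulated data. Gene symbols came from the RefSeq transcript of each feature, and promoter sequence from RefSeq (GRCm38.p6). By rule, the genes named were Psmb5 to Psmb10, Psme1 and Psme2, the 5 largest rises and falls among the members called in a comparison or, with none called, the 3 largest differences without overlap at an unadjusted p under 0.05, the 3 largest changes either way in each pathway list, and Nfe2l1, Nfe2l2, Pomp, B2m and Tap1. Some genes that the rule takes in are not reported here. Further members were named after their values were seen. The members and lists were chosen with earlier results of these data known.

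The replicate numbers were not taken to pair samples. Alternatives were quantile, median and normexp scaling, the authors' values, the mean over a gene's features, other filters, blocks for replicate and slide, all arrays in 1 model, 1 genotype or age only, leaving out each sample, and the methods' t-test. Added after seeing the data were the values within slides, leaving out the 3 cortex arrays that carried markers of other regions, and the test of age by tissue. The number of arrays limits the precision.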

Additional observations from a re-analysis of the deposited data

How the results depend on the processing

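No member passed for genotype under any alternative adjusted over all features, with each sample left out in turn included (0 to 0 in each comparison). The methods' t-test without adjustment gave 6, 3, 3 and 7 members in the 10-month cortex, 17-month cortex, 10-month whole brain and 17-month whole brain, and 0 after Benjamini-Hochberg. The slide could not be a block in the 10-month cortex and the 17-month whole brain, which lay on 1 slide each. Genotype by age in whole brain had 0 to 2 members with 1 sample left out.

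Of the age differences in cortex, 7 were called. Quantile normalization gave 13, all 24 arrays in 1 model 12, the slide as a block 3, WT alone 1, Tg2576 alone 1, slide 1 alone 0, and leaving out the 3 cortex arrays with markers of other regions 3. Of all features, 26.7% were called, and 27.7%, 29.4%, 4.4%, 4.56%, 10.3%, 0.0762% and 12.8% under these settings in turn. With 1 sample left out there were 7 to 9. In whole brain 23 were called. The slide as a block gave 6, WT alone 11, Tg2576 alone 4, slide 3 alone 2, and 1 sample left out 17 to 22 (17 without the 17-month WT replicate 2). Of all features, 38.4% were called, and 10.4%, 27.8%, 12.1% and 6.2% under the first 4 of these. Between tissues 24 were called. The slide as a block gave 1, 10 months alone 14, 17 months alone 11, WT alone 10, Tg2576 alone 9, slide 2 alone 3, and 1 sample left out 21 to 25. Of all features, 37.5% were called, and 0.652%, 17.1%, 22.5%, 22.7%, 14.5% and 13.1% under the first 6. The test of age by tissue gave 1 member without the 3 cortex arrays, Psma7 at -0.74, where 10-month Tg2576 cortex is then 1 sample. With the replicate number as a block the counts were 9, 19 and 24, and 0 for genotype. The deviations of same-numbered samples correlated at -0.13 to 0.32 between groups. Differently numbered samples were not set beside them, so whether same-numbered samples were related was not tested. Fits on 1 genotype, age or slide have fewer samples. In WT whole brain alone and in Tg2576 cortex alone, age and slide were also the same split. The cause of the other changes was not tested.

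With age in whole brain, Psmg4 changed sign with the slide as a block (-0.0087) and within slide 3 (-0.0135), and Psmd4 in WT alone (-0.0239). Between tissues, the slide as a block turned Psmb2 (0.18), Psmd5 (0.056), Psma1 (0.0595), Psmd7 (0.0197), Psmc4 (0.16), Psma4 (0.0486), Psmd13 (0.0715) and Psme3 (-0.41). Psmb2 turned at 10 months alone (0.0065) and Psmb1 at 17 months alone (0.0191). Within slide 2, Psmb9 (0.12), Psmb2 (0.0269), Psmd7 (0.0321), Psmc4 (0.0728), Psmc5 (0.011), Psmd4 (0.0142) and Psme3 (-0.0103) turned. None of the 7 genes called in cortex with age changed sign in any of the 182 values computed.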
